A study of Mus musculus with 11 samples.

Results

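The 51 genes described here encode the translation initiation factors of mouse and their direct regulators. They are the protein-coding genes whose symbol begins with Eif and a digit from 1 to 6, without Eif2ak3, Eif2s3x and Eif2s3y, that had at least 10 raw counts in at least 5 of the 11 libraries. Of 52 candidate genes, 51 passed this minimum, and the other, Eif4e1b, had 0 counts in every library. The 51 are part of 48709 gene identifiers in the count files and of 14650 protein-coding genes that passed the same minimum.

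RNA came from the hippocampal CA1 field of 3 months old mice of both sexes. The transgenic group held 6 libraries from CamkdeltaC mice, and the control group held 5 libraries from their littermates. In this line, as background, a kinase isoform is overexpressed in heart muscle and the mice develop heart failure, so the comparison asks how CA1 differs in mice with a heart transgene. The labels used here do not name the promoter of the transgene, and per library they give no sex, no litter and no batch. They also do not say whether libraries came from different mice, and without that the p-values describe spread between libraries that may be technical.

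Initiation factors bring a ribosome to the start codon of an mRNA. The eIF4F complex binds the cap and unwinds the leader, eIF2 carries the initiator tRNA, eIF3 holds the small subunit and its partners together, and eIF5B joins the large subunit. In hippocampal neurons, phosphorylation of eIF2 and release of eIF4E from its binding proteins are known control points of protein synthesis during synaptic plasticity and memory.

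Total counts ranged from 14263784 in control 5 to 36898689 in control 3, and the members took 0.466% to 0.495% of a library's counts. Mitochondrial genes took 3.00% to 4.15% in transgenic and 3.86% to 5.03% in control libraries. Camk2d, the gene the transgene derives from, stood at 40.4 to 131.6 CPM (counts scaled to a common library size) in transgenic and 53.7 to 94.3 CPM in control libraries. Xist, which is transcribed from the inactive X chromosome, was high in 6 libraries. It was at 591 to 632 CPM in transgenic 1 to 3 and at 1020 to 1111 CPM in control 1, 3 and 4. These ranges did not overlap, so Xist as a covariate, used in an alternative fit below, also differed with genotype. In the other 5 libraries Xist was at 0.334 to 1.49 CPM. Of those 5, transgenic 5 also lacked the Y-linked Ddx3y, which the other 4 had. Of the marker lists of cell types, 3 of 6 microglial, 1 of 6 interneuron and 1 of 5 astrocyte genes rose in edgeR (against 7.41% of all genes), 0 fell, and the lists of CA1, CA3 and dentate neurons, oligodendrocytes, endothelium and choroid plexus had 0 calls. The median log2 fold change was 0.27 for microglia, 0.35 for oligodendrocytes, 0.26 for CA1 pyramidal neurons and -0.47 for dentate granule cells. The microglial list summed to 255 to 342 CPM in transgenic and 227 to 280 CPM in control libraries. The dentate granule cell list summed to 26.1 to 117 CPM in transgenic and 28.2 to 140 CPM in control libraries. No marker list had a gene at 0 in every library, and the part of cell makeup in the results below was not tested.

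Per kilobase of exon, the most abundant members in control CA1 were Eif4a2, a copy of the cap-complex helicase, at 83.3 ± 5.33 CPM per kb (SD, n = 5), and Eif1b, a start codon selection factor, at 73.4 ± 6.45. Eif5a, which helps the ribosome through difficult peptide bonds, followed at 65.1 ± 5.35, Eif4g2, a scaffold for cap-independent initiation, at 64.0 ± 3.49, and Eif4h, a helper of the helicase, at 54.9 ± 3.18. The ranges of neighbours in this order overlapped, from 77.0 to 89.8 CPM per kb for Eif4a2 and from 66.9 to 83.0 for Eif1b. In transgenic CA1, Eif1b came first at 82.2 ± 4.30 CPM per kb (SD, n = 6) and Eif4a2 second at 78.1 ± 6.14. Length here counts all annotated exons of a gene together, expressed or not, so the order between genes also depends on annotation.

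The lowest levels belonged to Eif3j1, at 0.403 ± 0.0608 CPM per kb in control, to the eIF4E-binding proteins Eif4ebp1 at 0.717 ± 0.149 and Eif4ebp3 at 0.760 ± 0.199, to Eif3j2 at 1.08 ± 0.122 and to the kinase Eif2ak2 at 1.43 ± 0.152. Eif3j1 and Eif3j2 are near-identical copies, and reads that fit both could have been split or dropped, so their levels are uncertain. Members whose rank moved by 5 places or more were Eif5a2, from 22 in control to 28 in transgenic, Eif5, from 12 to 17, Eif1a, from 31 to 36, Eif4e, from 32 to 37, and Eif1ad, from 36 to 31.

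**Figure D1:**
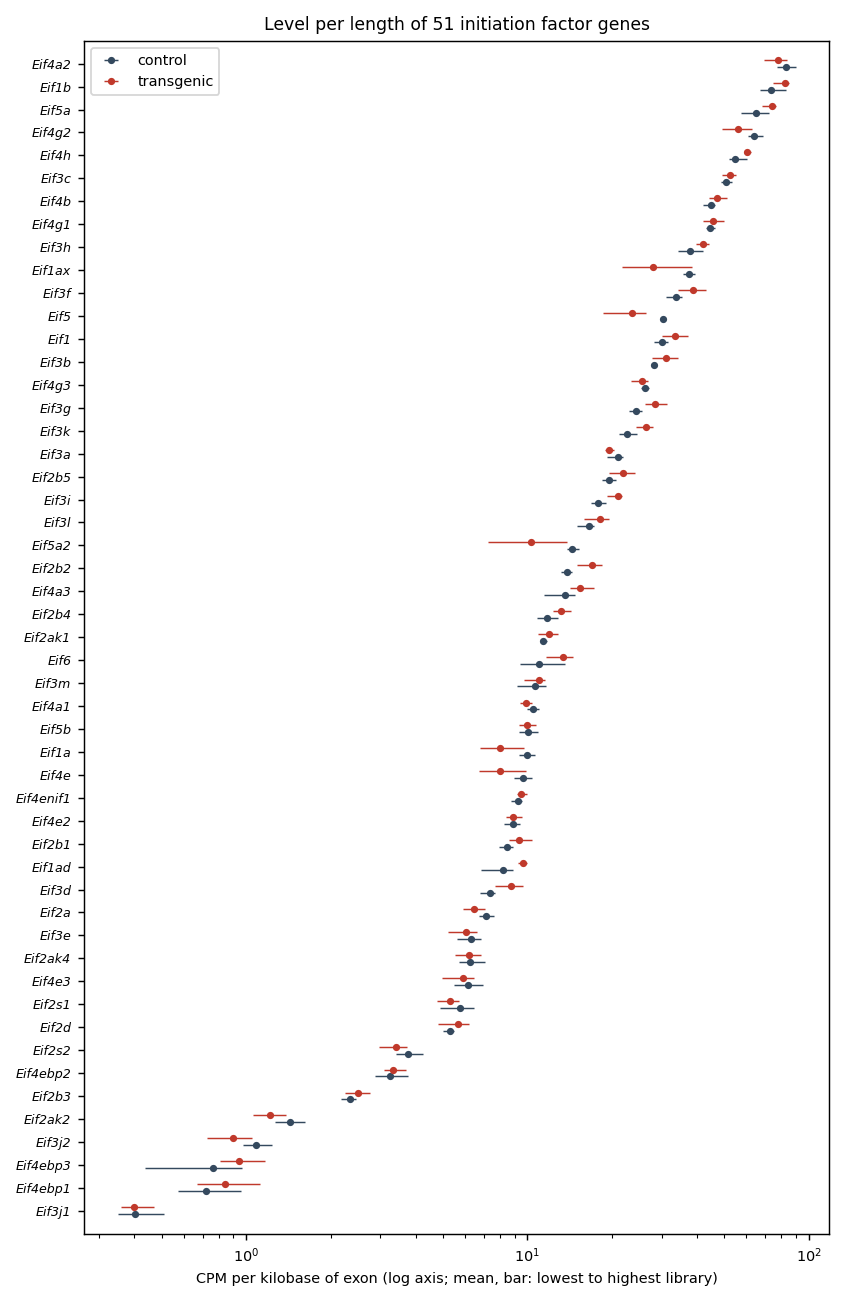
Mean level of each of the 51 initiation factor genes in CPM per kilobase of exon (log axis) in control (5 libraries) and transgenic (6 libraries) CA1, with bars from the lowest to the highest library. Levels ran from 0.403 for Eif3j1 to 83.3 for Eif4a2 in control, and among transgenic bars those of Eif5a2 (7.21 to 13.9) and Eif1ax (21.6 to 38.4) are wide.

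With library scaling alone, 13 of the 51 members (25.5%) differed between the genotypes at an edgeR adjusted p under 0.05, against 17.9% of all 17293 genes tested. Higher in transgenic CA1 were 9 members (17.6%, against 7.41% of all genes): Eif2b2, Eif6, Eif3d, Eif3g, Eif3i, Eif1ad, Eif3k, Eif3f and Eif5a. Lower were 4 members (7.84%, against 10.5%): Eif5a2, Eif1ax, Eif5 and Eif1a. The rises were small, from 0.18 to 0.30 on the log2 scale, and the falls ran from -0.32 to -0.49. The median log2 fold change was 0.05 over the members and 0.01 over all genes. In whole tissue, fewer cells of a type and less RNA per cell cannot be told apart. The groups did not overlap for 5 members (7.77% of all genes), 4 higher (7.84%, against 3.04% of all genes) and 1 lower (1.96%, against 4.73%). The authors' deposited tables list 16 members, 11 higher and 5 lower, including these 13 (of the protein-coding genes above the minimum 25.6% are listed, 12.1% as higher and 13.5% as lower). DESeq2 called 12 members higher (5.44% of all genes it tested) and 5 lower (6.52%), voom with sample weights called 18 higher (12.5%) and 6 lower (15.1%), and edgeR without a filter called 5 higher (2.06%) and 4 lower (4.39%). The shares for DESeq2 and for no filter run over 32050 and 32062 genes. These include genes with few counts, whereas every member passed a minimum, so those shares are not like for like. Leaving out 1 library at a time gave 2 to 15 members higher and 1 to 6 lower. The count of higher members was 2 without control 5, 3 without control 4, 4 without transgenic 2 or 3, 5 without transgenic 1, transgenic 4 or control 1, and 15 without transgenic 6. The count of lower members was 1 without control 3 or 4 and 2 without transgenic 2, 3 or 4 or control 1 or 5. The whole table moved too: 361 of 17346 genes were higher without control 4, 404 of 17466 without control 5 and 2132 of 17068 without transgenic 6. Lower genes ran from 794 of 17346 without control 4 to 2580 of 17068 without transgenic 6.

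GC content moved with these differences. Across the 51 members the log2 fold change correlated with the GC content of the longest transcript (Pearson's r 0.792, Spearman's rho 0.770, a description over genes that share the same libraries), and across the 17246 tested genes with a GC value r was 0.642 and rho 0.684. The 9 members that rose had a median GC content of 52.5% and the 4 that fell 39.8%. With the GC trend of every library taken out over all genes, 4 members were higher (7.84%, against 1.16% of all genes), Eif3e, Eif3m, Eif3i and Eif4a2, and 0 lower in edgeR (0.821% of all genes, and 1.98% in either direction). At an unadjusted p under 0.05, 3 were lower and 14 higher. The share of all genes at an unadjusted threshold was not computed, here or for the role groups below. Eif3i was the 1 member called both before and after. The correlation with GC content then stood at -0.283 for r and -0.182 for rho. Whether the trend arose in the libraries or in the tissue was not tested.

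**Figure D2:**
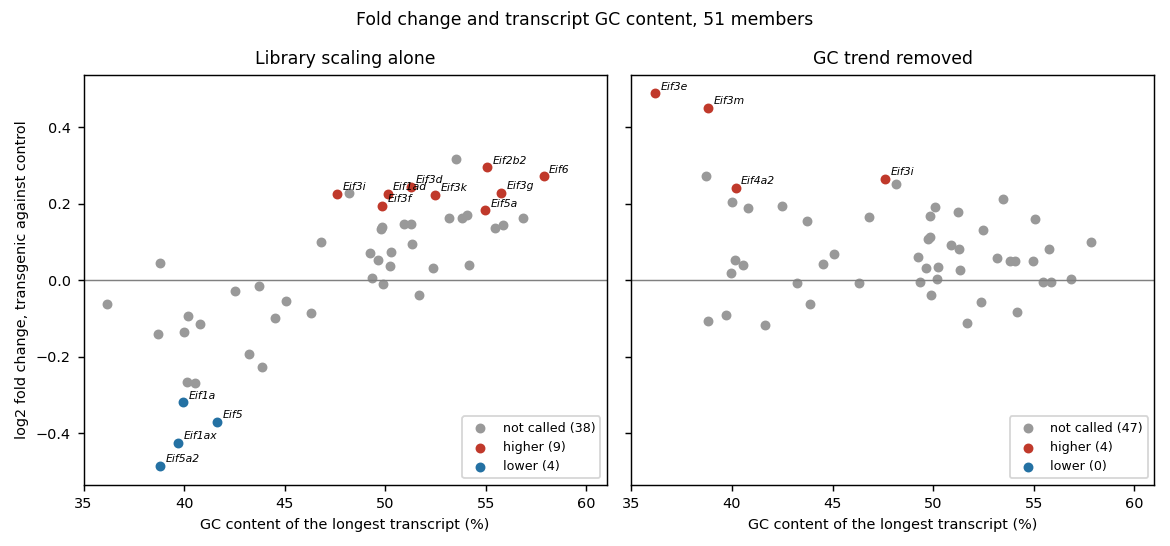
Log2 fold change (transgenic against control) of the 51 members against the GC content of the longest transcript, with library scaling alone (left) and after removal of each library's GC trend (right), coloured by edgeR call. The 4 members that fell lie between 38.8% and 41.7% GC, and after removal the 4 called members lie at 36.2% to 47.6%.

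The start regions of the called members are shown because the genes that rose and those that fell differ in transcript base composition. The windows are the 100 bases before the RefSeq start (GRCm38.p6), 5′ to 3′ on the gene's strand, for the 9 called members with 1 annotated start there, and capitals mark any of 4 motifs. Gene positions elsewhere in the text come from GENCODE, whose starts can differ. The windows of Eif3g, Eif1ad and Eif5 lie partly inside the gene as GENCODE gives it, and that of Eif5a2 by its last base. Of the 51 members, 40 matched the promoter table by symbol. The first 6 rose and the last 3 fell.
Eif2b2, chr12:85219381-85219480, + strand: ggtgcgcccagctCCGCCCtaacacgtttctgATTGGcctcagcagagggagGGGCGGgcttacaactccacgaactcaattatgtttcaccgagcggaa
Eif3d, chr15:77970825-77970924, - strand: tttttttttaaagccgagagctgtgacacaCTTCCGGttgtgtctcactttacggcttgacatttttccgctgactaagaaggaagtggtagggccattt
Eif3g, chr9:20898591-20898690, - strand: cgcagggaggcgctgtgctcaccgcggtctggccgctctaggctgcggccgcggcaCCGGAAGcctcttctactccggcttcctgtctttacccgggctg
Eif3k, chr7:28981889-28981988, - strand: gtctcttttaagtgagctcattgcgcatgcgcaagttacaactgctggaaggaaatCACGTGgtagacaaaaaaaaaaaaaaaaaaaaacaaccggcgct
Eif3f, chr7:108934315-108934414, + strand: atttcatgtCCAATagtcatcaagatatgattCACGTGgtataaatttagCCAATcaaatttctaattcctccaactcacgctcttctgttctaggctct
Eif1ad, chr19:5366713-5366812, + strand: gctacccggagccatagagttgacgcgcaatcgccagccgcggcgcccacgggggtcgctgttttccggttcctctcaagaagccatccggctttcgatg
Eif5, chr12:111538001-111538100, + strand: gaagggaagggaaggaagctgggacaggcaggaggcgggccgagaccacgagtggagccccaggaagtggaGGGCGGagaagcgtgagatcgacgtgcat
Eif1ax, chrX:159372078-159372177, + strand: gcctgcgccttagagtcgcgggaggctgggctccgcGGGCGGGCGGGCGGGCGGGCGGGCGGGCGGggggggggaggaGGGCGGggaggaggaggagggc
Eif5a2, chr3:28781177-28781276, + strand: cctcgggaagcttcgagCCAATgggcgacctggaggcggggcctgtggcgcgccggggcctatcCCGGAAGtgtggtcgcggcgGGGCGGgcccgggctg

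The windows of the members that fell had a median GC content of 77.0% (65.0% to 85.0%, n = 3) and their transcripts 39.7%. The windows of the 6 that rose had a median of 51.0% (36.0% to 70.0%) and their transcripts 51.9%. Over the 34 members with 1 annotated start the median window stood at 67.0%, and over all 32851 RefSeq windows at 55.0%. Both strands were searched for 4 motifs, none of which contains another. They were the ETS factor core CCGGAAG, the CCAAT box, the GC box with the letters GGGCGG, and the E-box CACGTG, which is its own reverse complement. The GC box was in each of the 3 windows of members that fell and in that of Eif2b2, and in Eif1ax its copies overlap. Of all windows 24.7% held the GC box, 18.9% CCAAT, 4.52% the ETS core and 3.17% the E-box, and of the 53 windows of the members 50.9%, 17.0%, 15.1% and 13.2%. A match is a string of letters in this window and says nothing of whether a factor binds.

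Among the 10 members grouped by name around start codon selection and eIF2, 3 fell and 1 rose (against 10.5% and 7.41% of all genes). Their median log2 fold change was -0.13 (0.07 after removal of the GC trend, with 0 calls). Eif5 (chr12:111538016-111546752, mm10) encodes the GTPase-activating protein that releases eIF2 once the start codon is found. Its level was 126, 142, 158, 176, 179.7 and 179.7 CPM in transgenic 1 to 6 and 211, 204, 208, 204 and 210.1 CPM in control 1 to 5. Every transgenic library lay below every control library, and the fall was -0.37 on the log2 scale (SE 0.08, edgeR adjusted p = 0.0155). It passed the test in all 11 fits that left out 1 library, and stood at -0.12 (adjusted p = 0.251) after removal of the GC trend. A small nucleolar RNA gene, Snora28, shares 127 bases of exon with Eif5.

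Eif1ax and Eif1a are copies of the factor eIF1A, which opens the small subunit for scanning. Eif1ax (chrX:159372178-159389928) stood at 114, 118, 132, 145, 171 and 202 CPM in transgenic and at 188, 198, 207, 202 and 192 CPM in control libraries. Transgenic 6 lay within the control range and the other 5 below it. The change was -0.43 (SE 0.13, edgeR adjusted p = 0.0356), kept without transgenic 5 or without transgenic 6 and lost without any of the other libraries (up to 0.0802), and -0.09 after removal of the GC trend (0.464). Eif1a stood at 30.3, 28.3, 32.7, 33.8, 34.0 and 40.6 CPM in transgenic and 38.8, 41.8, 43.9, 44.2 and 39.0 CPM in control libraries. Here too only transgenic 6 reached the control range. The change of Eif1a was -0.32 (SE 0.08, adjusted p = 0.0218), lost without control 3 or control 4 (up to 0.0606), and 0.02 after removal of the GC trend (0.891).

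Eif1ad, which encodes a protein related to eIF1A, stood at 27.8, 25.9, 27.0, 27.3, 27.1 and 25.9 CPM in transgenic and 22.9, 24.9, 24.6, 22.9 and 19.1 CPM in control libraries. The groups did not overlap, and control 5 was the lowest. The rise was 0.22 (SE 0.07, edgeR adjusted p = 0.0338), kept without transgenic 5, transgenic 6, control 2 or control 3 and lost without each of the others (up to 0.0740), and 0.19 after removal of the GC trend (0.109). Its exons share 428 bases with Banf1 on the other strand, which an unstranded kit cannot separate. Eif2s1, the eIF2 subunit that the stress kinases phosphorylate, stood at 24.0, 23.5, 26.5, 26.7, 28.1 and 28.4 CPM in transgenic and 27.7, 24.3, 30.6, 31.9 and 27.4 CPM in control libraries, which overlap. Its log2 fold change was -0.12 (adjusted p = 0.313) and 0.19 after removal of the GC trend (0.0892). The other 5, Eif1, Eif1b, Eif2a, Eif2d and Eif2s2, lay between -0.14 and 0.16 and did not pass the test. After removal of the GC trend Eif2a went from -0.14 to 0.20 (adjusted p = 0.0512) and Eif2s2 from -0.14 to 0.27 (0.0567), and Eif1, Eif1b and Eif2d stood at 0.09, 0.05 and 0.03.

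The 5 genes of eIF2B, the exchange factor that recharges eIF2 with GTP and the target of the integrated stress response, had log2 fold changes from 0.10 to 0.30, and 1 passed the test. Eif2b2 (chr12:85219481-85226628), its beta subunit, stood at 34.6, 34.4, 33.7, 28.2, 31.9 and 29.5 CPM in transgenic and 26.2, 27.1, 25.9, 26.4 and 24.7 CPM in control libraries. All 6 transgenic libraries lay above all 5 control libraries. The rise was 0.30 (SE 0.06, edgeR adjusted p = 0.0132), it passed in all 11 fits that left out 1 library, and it was 0.16 after removal of the GC trend (0.0949). Eif2b5 and Eif2b4 were each at 0.16 (adjusted p = 0.0640 and 0.0720), Eif2b1 at 0.14 and Eif2b3 at 0.10, and after removal these lay between 0.0030 and 0.16. DESeq2 called 3 of the 5 higher. Of the eIF2 kinases, Eif2ak3 is not among the members. The other 3, Eif2ak1, Eif2ak2 and Eif2ak4, which sense heme, double-stranded RNA and uncharged tRNA, gave 0 calls with edgeR and with DESeq2. Of these, 1 (Eif2ak2, -0.23) had an unadjusted p under 0.05. After removal of the GC trend the 3 kinases lay between -0.06 and 0.06.

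In the eIF3 complex, the role group with the most members, 5 of 14 rose and 0 fell (against 7.41% and 10.5% of all genes), and the median log2 fold change was 0.14 (0.12 after removal of the GC trend). In edgeR 0 were lower at an unadjusted p under 0.05. DESeq2 also called 5 higher and 0 lower, with 1 lower at an unadjusted p under 0.05. Eif3i (chr4:129591960-129600648), a WD-repeat subunit, stood at 80.5, 80.4, 77.2, 79.9, 71.2 and 75.7 CPM in transgenic and 65.3, 70.6, 65.7, 67.3 and 62.1 CPM in control libraries. Each transgenic library lay above each control library. The rise was 0.23 (SE 0.05, edgeR adjusted p = 0.0142) and 0.26 after removal of the GC trend (SE 0.05, 0.0314). With library scaling alone it passed in all 11 fits that left out 1 library.

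Eif3d, the subunit that can bind the cap, stood at 47.9, 46.6, 42.2, 43.5, 42.3 and 38.0 CPM in transgenic and 36.9, 38.1, 37.1, 37.3 and 33.6 CPM in control libraries. Transgenic 6 lay just below control 2, and the rest did not overlap. The rise was 0.24 (SE 0.06, adjusted p = 0.0218), lost without transgenic 2, control 4 or control 5 (up to 0.0567), and 0.18 after removal of the GC trend (0.0729). An antisense gene, Gm17638, shares 2151 bases of exon with Eif3d. Eif3g, an RNA-binding subunit that acts in scanning, stood at 62.1, 56.7, 60.8, 56.4, 51.8 and 51.8 CPM in transgenic and 47.6, 50.8, 49.5, 45.6 and 48.2 CPM in control libraries. The groups did not overlap. The rise was 0.23 (SE 0.06, adjusted p = 0.0220), lost without transgenic 3, control 4 or control 5 (up to 0.0606), and 0.08 after removal of the GC trend (0.319).

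Eif3k and Eif3f rose by 0.22 and 0.19 on the log2 scale. Eif3k ranged from 65.4 to 75.7 CPM in transgenic and from 57.2 to 65.9 CPM in control libraries (adjusted p = 0.0196, 0.0532 without control 5). Eif3f ranged from 99.5 to 125 CPM and from 90.0 to 102 CPM (adjusted p = 0.0376), and it kept its call only without transgenic 5, transgenic 6 or control 2. In both the groups overlapped by a single transgenic library, and after removal of the GC trend they stood at 0.13 (0.105) and 0.17 (0.0951). The other 9, among them the scaffolds Eif3a (-0.10), Eif3b (0.14) and Eif3c (0.05), lay between -0.27 and 0.15 without a call. Of these, all but Eif3e and Eif3m lay between -0.0060 and 0.19 after removal.

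Eif3e and Eif3m passed once the GC trend was removed and not before. The GC content of their longest annotated transcripts was low (36.2% and 38.8%). Their changes after removal rest on this value, and whether CA1 expresses those transcripts was not tested. Eif3e stood at 34.9, 39.6, 40.6, 43.0, 41.7 and 44.3 CPM in transgenic and 41.1, 41.4, 45.9, 46.0 and 37.7 CPM in control libraries. Eif3m stood at 25.2, 28.5, 28.0, 29.1, 29.9 and 30.0 CPM in transgenic and 27.8, 27.9, 28.1, 30.0 and 23.7 CPM in control libraries. In CPM the groups overlapped for both genes. The log2 fold change of Eif3e went from -0.06 (adjusted p = 0.558) to 0.49 (SE 0.09, 0.0314) and that of Eif3m from 0.05 (0.664) to 0.45 (SE 0.08, 0.0314). These calls, that of Eif3i and that of Eif4a2 after removal of the GC trend held only without transgenic 5, transgenic 6 or control 2. In the other 8 of 11 fits no gene of the whole table was called, and the adjusted p of these 4 members was 0.0549 to 0.105.

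**Figure D3:**
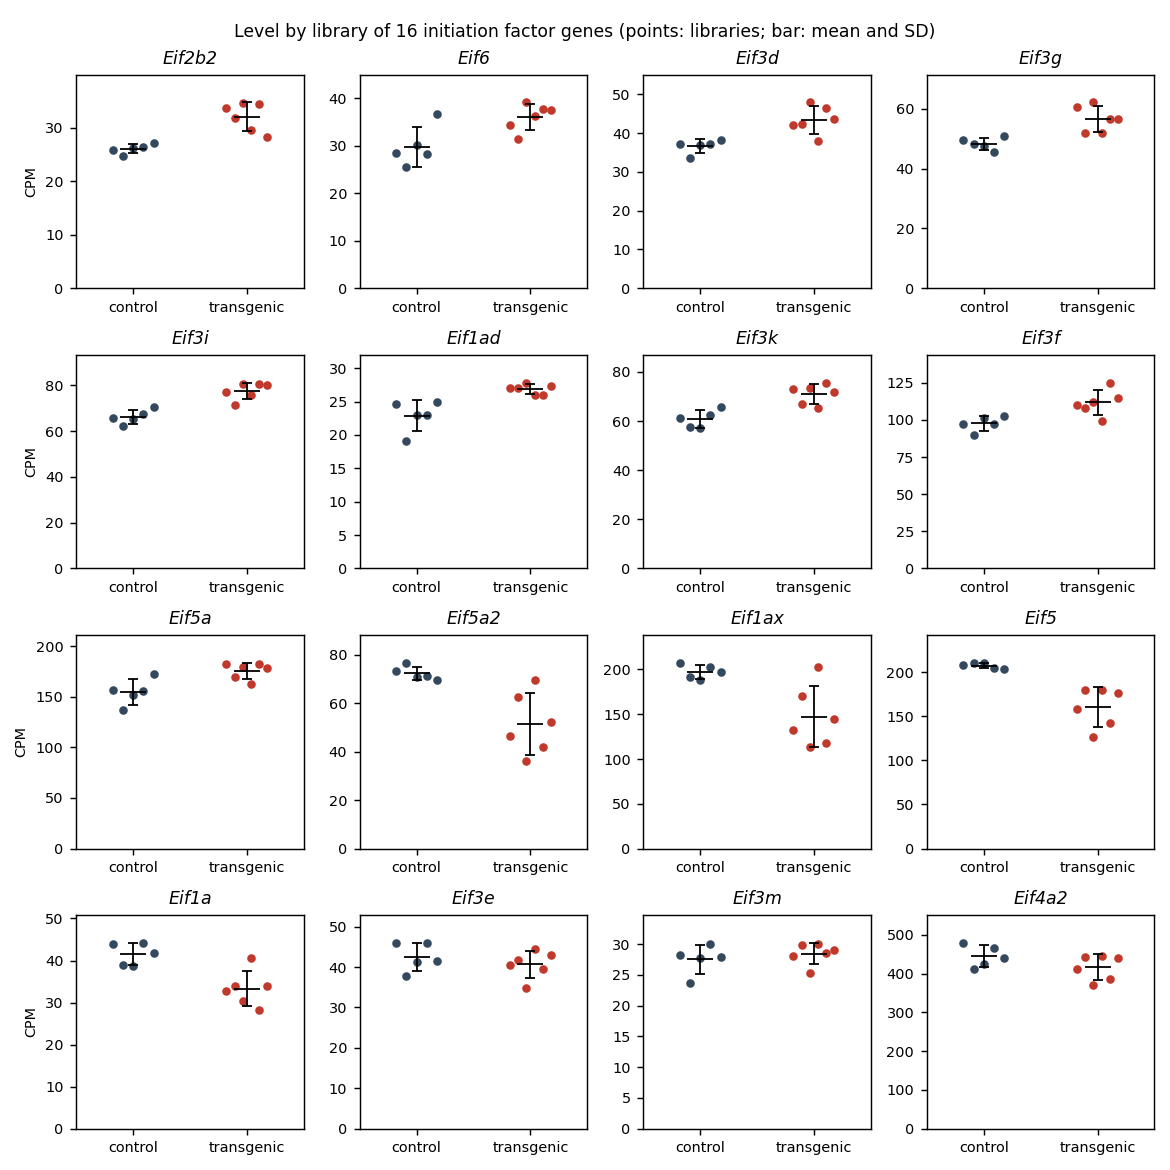
CPM of 16 members, the 13 called with library scaling alone and Eif3e, Eif3m and Eif4a2, which passed once the GC trend was removed, with a point for each library and the mean and SD. The groups do not overlap for Eif2b2, Eif3g, Eif3i, Eif1ad and Eif5, and the transgenic points of Eif5a2 and Eif1ax spread from 36.3 to 69.7 CPM and from 114 to 202 CPM.

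The 11 genes of the cap-binding complex and its helicase had a median log2 fold change of -0.04, and 0 passed in edgeR (2 higher and 2 lower at an unadjusted p under 0.05, and 1 higher and 1 lower in DESeq2). Eif4e, the cap-binding protein, stood at 40.5, 41.1, 46.8, 48.4, 51.6 and 59.3 CPM in transgenic and 53.7, 54.8, 60.8, 62.5 and 57.1 CPM in control libraries. Transgenic 6 lay within the control range and the other 5 below it, with -0.27 (SE 0.09, edgeR adjusted p = 0.0546), and 0.04 after removal of the GC trend. Eif4g1, the main scaffold, stood at 365, 344, 348, 324, 311 and 308 CPM in transgenic and 338, 318, 315, 325 and 326 CPM in control libraries (0.04, adjusted p = 0.643, and -0.08 after removal, 0.259). These overlap, with transgenic libraries at both ends.

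Of the helicase copies, Eif4a2 passed once the GC trend was removed and Eif4a1 did not. Eif4a1 stood at 42.1, 42.7, 42.7, 45.0, 43.5 and 40.7 CPM in transgenic and 45.4, 43.2, 45.7, 47.7 and 45.1 CPM in control libraries (-0.09, edgeR adjusted p = 0.185, and -0.01 after removal). Eif4a2 stood at 369.7, 387, 411, 442, 444 and 447 CPM in transgenic and 425, 441, 479, 467 and 411 CPM in control libraries. For both the groups overlapped. Eif4a2 went from -0.09 (adjusted p = 0.322) to 0.24 (SE 0.05, 0.0387), and its exons hold several small nucleolar RNA genes. As for Eif3e and Eif3m, its change after removal rests on the GC content of the longest annotated transcript (40.2%). The others of this group, Eif4a3, Eif4b, Eif4e2, Eif4e3, Eif4g2, Eif4g3 and Eif4h, lay between -0.19 and 0.17, and between -0.11 and 0.07 after removal.

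The 4 regulators that bind eIF4E gave 0 calls in edgeR, 0 in DESeq2 and 0 at an unadjusted p under 0.05. Eif4ebp1, an inhibitor of eIF4E that mTOR inactivates, stood at 1.73, 1.91, 1.65, 1.84, 1.46 and 2.46 CPM in transgenic and 1.34, 2.10, 1.63, 1.26 and 1.54 CPM in control libraries (0.23, SE 0.17, adjusted p = 0.365, and 0.25 after removal of the GC trend). Eif4ebp2, the form that predominates in brain, stood at 19.8, 21.4, 19.1, 17.8, 19.3 and 18.1 CPM in transgenic and 21.7, 18.5, 17.3, 19.9 and 16.5 CPM in control libraries (0.03, SE 0.08, adjusted p = 0.813, and -0.06 after removal). Both overlapped between the groups. Eif4ebp3 and the nuclear carrier of eIF4E, Eif4enif1, were at 0.32 (SE 0.21) and 0.04, and at 0.21 and 0.0016 after removal.

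Of the 4 genes of subunit joining and later steps, Eif5a and Eif6 rose and Eif5a2 fell. Eif5a stood at 179, 182, 182, 179, 169.9 and 163 CPM in transgenic and 152, 173, 157, 156 and 137 CPM in control libraries. Control 2 lay within the transgenic range. The rise was 0.18 (SE 0.06, edgeR adjusted p = 0.0457), kept only without transgenic 6 or control 2 (otherwise up to 0.107), and 0.05 after removal of the GC trend. Eif6, which keeps the large subunit from joining early, stood at 39.1, 37.7, 34.4, 37.6, 31.4 and 36.2 CPM in transgenic and 30.1, 36.7, 28.5, 28.2 and 25.5 CPM in control libraries. Control 2 was again the highest control. The rise of Eif6 was 0.27 (SE 0.09, adjusted p = 0.0458), kept only without transgenic 5, transgenic 6 or control 2 (otherwise up to 0.109), and 0.10 after removal of the GC trend (0.526).

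Eif5a2 (chr3:28781276-28798846), the tissue-restricted copy of Eif5a, stood at 36.3, 41.8, 46.6, 52.4, 62.7 and 69.7 CPM in transgenic and 71.0, 69.6, 73.2, 71.2 and 76.8 CPM in control libraries. Transgenic 6 reached the lowest control and the other 5 lay below. Mitochondrial genes took 3.00%, 3.18%, 3.32%, 3.52%, 4.15% and 4.12% of counts in transgenic 1 to 6. Among the transgenic libraries, those with the lowest Eif5a2, Eif1ax, Eif5 and Eif4e levels thus also had low mitochondrial shares. These libraries, transgenic 1 to 3, were also the transgenic libraries with high Xist (591 to 632 CPM). In control 1 to 5 the mitochondrial shares were 3.86%, 3.97%, 4.40%, 5.03% and 3.87%, and Eif5a2 was at 71.0 CPM at the lowest share and 71.2 CPM at the highest. The part of the mitochondrial share in these results was not tested, and in the transgenic libraries it went together with Xist. The change of Eif5a2 was -0.49 (SE 0.14, edgeR adjusted p = 0.0295), kept only without transgenic 1, transgenic 5, transgenic 6 or control 2 (otherwise up to 0.0689), and -0.11 after removal of the GC trend (0.424). Eif5b, the joining GTPase, was at -0.02 (adjusted p = 0.854) and at 0.15 after removal (0.0575), and it shares 1643 bases of exon with Rev1 on the other strand.

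**Figure D4:**
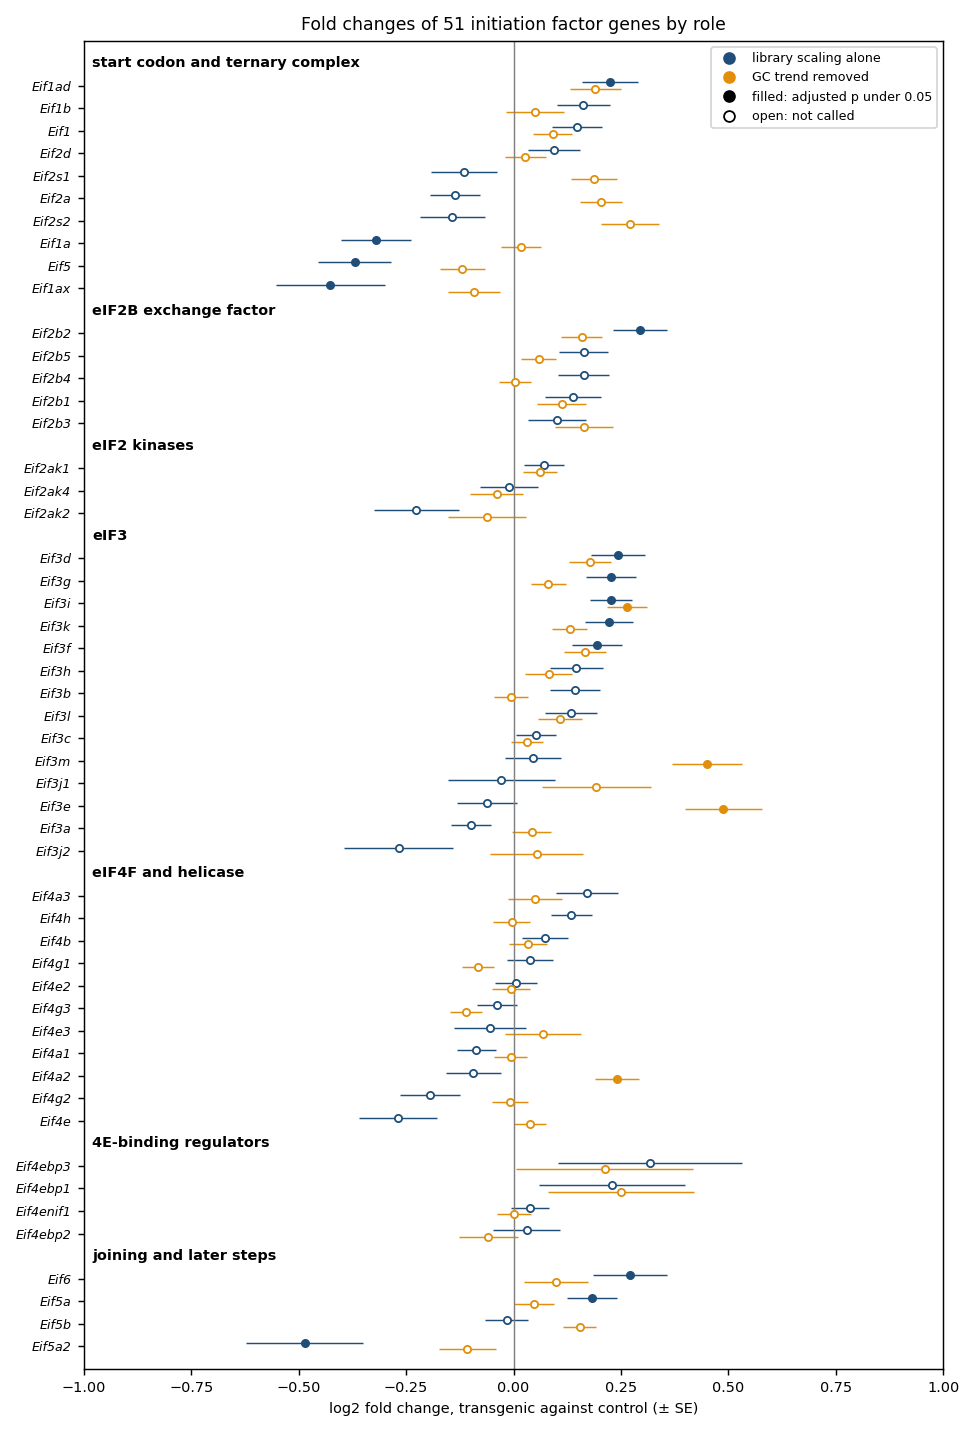
Log2 fold change (± SE) of the 51 members grouped by role, with library scaling alone and after removal of each library's GC trend, filled where the edgeR adjusted p is under 0.05. The filled points with library scaling alone lie at 0.18 to 0.30 and at -0.32 to -0.49, and those after removal at 0.24 to 0.49.

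A ratio of paralogs within a library does not depend on scaling, and 7 pairs were compared with a 2-sided exact permutation test over 462 splits, which allows a p of 0.00216 at the least. The ratio of Eif5a to Eif5a2 counts was 4.94, 4.35, 3.92, 3.41, 2.71 and 2.33 in transgenic and 2.14, 2.48, 2.15, 2.18 and 1.78 in control libraries. Transgenic 6 lay within the control range, and the difference in mean log2 ratio was 0.71 (exact p = 0.0108, 0.0758 adjusted over the 7 pairs) and 0.17 after removal of the GC trend (adjusted p = 0.273, exact test). No pair passed the adjusted threshold in raw counts, and 2 of the 7 had an unadjusted p under 0.05, this one and Eif4g1 to Eif4g3 (0.08, exact p = 0.0498). The ratio of Eif4a1 to Eif4a2 was 0.0911 to 0.114 in transgenic and 0.0953 to 0.1098 in control libraries, a difference of 0.01 (exact p = 0.877). After removal of the GC trend it was -0.25, with an exact p at the smallest value the test can give (0.00216, 0.0152 adjusted). This value rests on the fitted trend and on the GC content of the longest transcripts (46.3% for Eif4a1, 40.2% for Eif4a2). The trend was fitted on the same libraries, so this p cannot tell it from a difference between the copies. Eif4e to Eif4e2 stood at -0.28 (exact p = 0.0563), Eif1a to Eif1ax at 0.13, Eif4ebp1 to Eif4ebp2 at 0.19 and Eif1 to Eif1b at -0.02.

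**Figure D5:**
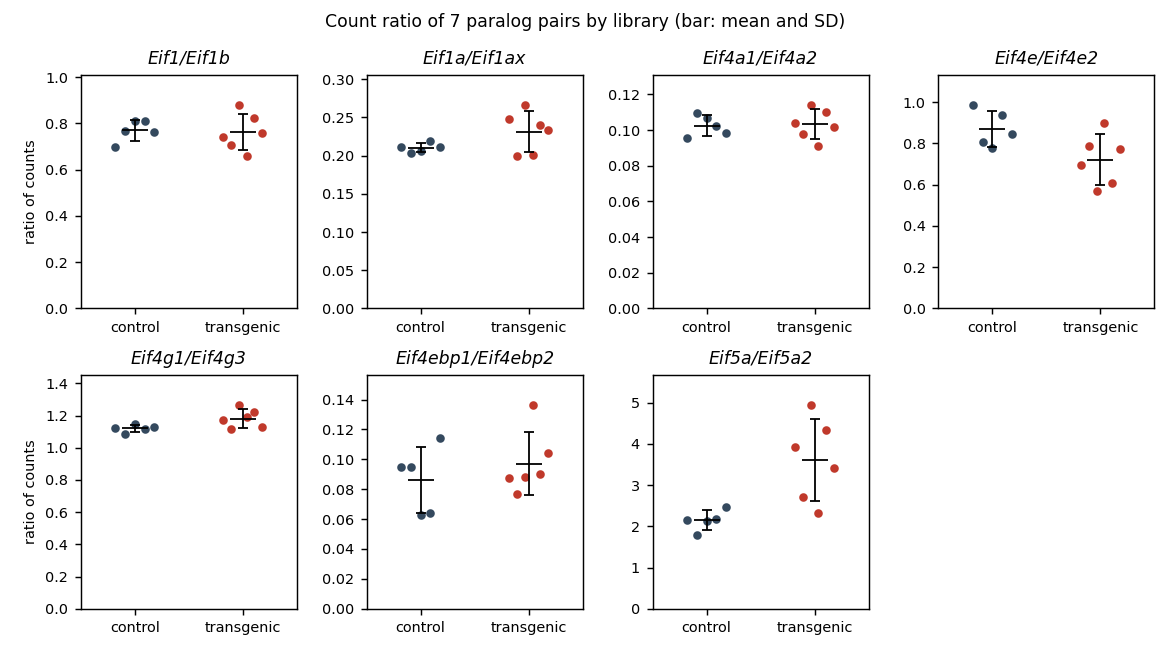
Ratio of raw counts of 7 paralog pairs in each control and transgenic library, with the mean and SD. The ratio of Eif5a to Eif5a2 spans 2.33 to 4.94 in transgenic and 1.78 to 2.48 in control libraries, and the other pairs overlap more.

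Of 76 tested genes in 7 lists of initiation factor partners and later steps of translation, 15 rose and 12 fell with library scaling alone (against 7.41% and 10.5% of all genes, median log2 fold change 0.02). After removal of the GC trend 4 rose and 1 fell (against 1.16% and 0.821%). Both enzymes that build hypusine, the modified residue eIF5A needs, rose: Dohh by 0.29 (edgeR adjusted p = 0.0125) and Dhps by 0.28 (0.0129), and stood at 0.06 and 0.14 after removal. Of 11 elongation factors 4 rose, among them Eef1b2, an exchange factor of eEF1A (0.17, adjusted p = 0.0369), which was also called after removal (0.26, 0.0314), Eef2, the translocase (0.19, 0.0376, and 0.02 after removal), and Eef1d (0.17, 0.0429, and 0.20 after removal). Of 8 termination and rescue genes 2 rose and 2 fell: Abce1, which recycles ribosomes, was at -0.29 (0.0178), Gspt1, a release factor, at -0.22 (0.0178) and Gtpbp1 at 0.19 (0.0370), and after removal they stood at 0.04, -0.11 and 0.03.

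Of 18 partners of the cap and the poly(A) tail 4 fell, among them Fmr1, a repressor of translation at synapses (-0.77, adjusted p = 0.0125, and -0.41 after removal, 0.0328), Larp4b (-0.18, 0.0326, and -0.06 after removal) and Paip1 (-0.34, 0.0368, and 0.0069 after removal). After removal 1 of the 18 was called lower, Fmr1, and 1 higher, a gene without a call before. Of 13 scanning and reinitiation genes 2 rose and 3 fell, with the helicases Ddx3x at -0.38 (0.0132, and -0.09 after removal) and Dhx36 at -0.37 (0.0265, and -0.03 after removal) and the ribosomal scaffold Rack1 at 0.24 (0.0170), called after removal too (0.25, 0.0368). Of 17 genes of mTOR and MNK control 3 rose and 2 fell: Rictor was at -0.39 (0.0111, and -0.17 after removal), the S6 kinase Rps6kb1 at -0.38 (0.0170, and -0.01 after removal) and the lysosomal anchor Lamtor1 at 0.26 (0.0172, and 0.26 after removal, 0.0419). Of 7 genes around the eIF2 phosphatase 2 rose and 1 fell: the stress factor Atf4 was at 0.22 (0.0178), the phosphatase subunit Ppp1ca at 0.20 (0.0339) and Impact, an inhibitor of the eIF2 kinase Eif2ak4, at -0.29 (0.0414), and after removal they stood at 0.08, 0.05 and -0.06. Of the pathway genes named here, Gspt1, Fmr1, Ddx3x, Rack1, Rictor, Rps6kb1, Lamtor1, Dohh and Dhps passed in all 11 fits that left out 1 library, Abce1 and Atf4 in 10, and the others in 2 to 6. The count of pathway genes that rose was 5 to 7 without transgenic 1, 2 or 3 or control 1, 3, 4 or 5, and that of genes that fell was 5 to 7 without transgenic 1, 2, 3 or 4 or control 3, 4 or 5. Over all genes 361 to 594 rose in the former fits and 794 to 1213 fell in the latter, against 1282 and 1812 with all libraries.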

How the data were processed

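Raw counts per gene were deposited by the authors for 11 libraries, 6 transgenic and 5 control, from single-end reads of 50 bases, per the labels. The TruSeq kit they name does not mark strand. The submitters' processing notes list FastQC 0.11.5, STAR 2.5.2b, featureCounts, Subread 1.5.1 and the mm10 build. Tool roles and settings were not given in the sources used here. Tables that the authors deposited, with 1780 higher and 2014 lower genes, give a log2 fold change and an adjusted p-value, and a size-factor scaled signal per library that the authors deposited.

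Members and lists were chosen with earlier results of these data known. Genes were named from GENCODE M21 on the same build. Counts were tested with edgeR 4.0.16 in R 4.3.3 (TMM, filterByExpr, quasi-likelihood F test, all 11 libraries, no covariate, Benjamini-Hochberg over 17293 genes, threshold 0.05). GC trends were removed as offsets from a lowess (span 0.3) of each library's deviation on transcript GC content, and CPM uses TMM library sizes. Paralog ratios added 0.5 counts. Values per library are given for up to 6 called members in each direction, taken by size of change, for members that passed once the GC trend was removed, and for 8 members of general interest, and from each other list up to 3 called genes with the smallest p are named. Alternatives were other scalings and filters, DESeq2 1.42.0, limma 3.58.1 voom with sample weights, a replicate block, Xist as a covariate, a length trend and each library left out. The fits were run on simulated counts with a fixed spread between libraries and a straight-line GC trend. The real libraries need not share that spread or shape, so the run does not show how GC removal performs on them. Depth sets the precision: the shallowest library held 14263784 counts, and standard errors here cover the spread between libraries.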

Additional observations from a re-analysis of the deposited data

Results flagged for a closer look

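Among 58 groups of values tested for a sample far from the rest, 1 stood apart: Eif3d in control 5 was at 33.6 CPM, with the nearest control at 36.9 and the highest at 38.1, so the gap took 0.737 of the range. The rule has a nominal rate of about 1 in 20 such groups set apart by chance, a rate that was not measured here. Control 5 is also the shallowest library, and without it the rise of Eif3d in transgenic CA1 was 0.22 on the log2 scale, against 0.24 with all libraries, at an edgeR adjusted p = 0.0567. Its call was also lost without transgenic 2 (0.0541) and without control 4 (0.0501).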

How the results depend on the processing

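The direction of each of the 13 called members held under other scalings, other filters, DESeq2, voom, the replicate block and Xist as a covariate. No control library has the number of transgenic 6, so the replicate block in effect leaves transgenic 6 out of the comparison. It is thus not independent of the fit without transgenic 6, which called 15 members higher. Without a filter 5 members were higher (Eif1ad, Eif3f, Eif5a and Eif6 lost their call), with voom 18 and with the replicate block 16, and 4 were higher after removal of the GC trend, 6 with the length trend also removed and 8 with the replicate block added to GC removal. Lower were 0 under these 3 GC settings. Pathway genes were called 7 higher without a filter and 4, 3 and 6 higher and 1, 1 and 1 lower under the same 3. Leaving out 1 library gave 2 to 15 members higher and 1 to 6 lower, and 5 to 18 pathway genes higher and 5 to 14 lower. With the GC trend removed as well these ranges were 0 to 10, 0 to 0, 0 to 6 and 0 to 1. Over all genes 2069 were called without a filter, 4774 with voom, 4594 with the replicate block, 342 and 294 after removal of the GC trend and of the GC and length trends, and 1155 to 4712 with 1 library left out. With the GC trend removed, 746 were called with the replicate block added and 0 to 942 with 1 library left out.

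Signs turned after removal of the GC trend, of the GC and length trends, and of the GC trend with the replicate block, in that order, for Eif1a (0.018, 0.0086, 0.014), Eif2s1 (0.19, 0.18, 0.21), Eif3e (0.49, 0.50, 0.55), Eif4a2 (0.24, 0.24, 0.27), Eif4e (0.038, 0.042, 0.022), Eif4ebp2 (-0.058, -0.056, -0.050) and Eif4g1 (-0.083, -0.066, -0.077), and with the block for Eif4a1 (0.017). They also turned under all 3 for Eif2a (0.20, 0.21, 0.24, called in the last 2), Eif2s2 (0.27, 0.28, 0.32, called in the last), Eif3a, Eif3j1, Eif3j2, Eif4e3, Eif4h and Eif5b (called in the second), and under some for Eif2b4, Eif3b, Eif4e2 and Eif4g2. The cause was not tested. With 1 library left out, Eif4ebp2 ranged from -0.0075 to 0.088, Eif3e from -0.099 to -0.022 and Eif4a2 from -0.12 to -0.062, and with the GC trend removed Eif3e ranged from 0.44 to 0.55 and Eif4a2 from 0.21 to 0.27. Eif4e passed with DESeq2 (adjusted p = 0.0364), voom (0.0121), the replicate block (0.00291) and Xist as a covariate (0.0283). The paralog ratios that turned after removal of the GC trend were Eif1/Eif1b (0.040), Eif4a1/Eif4a2 (-0.25) and Eif4e/Eif4e2 (0.045). With 1 library left out Eif1/Eif1b ranged from -0.062 to 0.020 and Eif4a1/Eif4a2 from -0.020 to 0.045.

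Same-numbered libraries did not deviate together (correlations 0.197, -0.0267, -0.185, -0.0514 and 0.0232), and number 1 alone matched best with its own, so the numbers were not taken to pair libraries. The alternative that joins the GC trend with the block, and the one that joins it with a left-out library, were added after seeing the data.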
